A study of Mus musculus with 4 samples.

Results

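The 9 Pax genes of the mouse, Pax1 to Pax9, were examined for H3K27me3, the trimethylated lysine of histone H3 that the Polycomb repressive complex PRC2 and its enzyme Ezh2 deposit on silent genes. They were taken by symbol from 21910 protein-coding genes, and their peaks were those in the gene or within 20 kb on either side. All 9 genes had such a peak with 15000 cells (30.07% of all protein-coding genes) and 8 of 9 with 500 cells (18.5% of all), the exception being Pax4. The mark lay over at least 1 annotated coding start at 9 of 9 genes with 15000 cells (10.46% of all) and at 7 of 9 with 500 cells (2.031% of all).

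The cells were erythro-myeloid progenitors (EMPs) of the E10.5 yolk sac, the progenitors that arise from hemogenic endothelium and give red cells and macrophages to the embryo. The study sorted them as LIN-SCA1-KIT+CD41+CD16/32+ cells from C57BL/6 mice. Their genotype is given as Ezh2fl/fl; Tie2-Cre+/+ and as wild type, for both H3K27me3 libraries alike, so the label sets floxed Ezh2 and Tie2-Cre, a Cre driven from an endothelial promoter, beside the words wild type. The libraries were taken as wild type, which the study's text also calls them, and the peak files do not test this. How many embryos were pooled per library is not given in the sources used here. H3K27me3 was profiled by CUT&RUN, in which an antibody tethers a nuclease that releases the bound chromatin, once with 500 EMPs and once with 15000 EMPs. There was 1 H3K27me3 library and 1 IgG library per cell number, and the IgG libraries entered only as the background of the peak caller. Cell number cannot be told apart from amplification (17 against 16 PCR cycles), read length (76 against 59 bp), instrument, depth and peak threshold (p-value of 0.01 with 500 EMPs, 0.05 with 15000). No value below has a replicate check, and no test between the libraries was possible. In a bulk profile, a mark carried by all cells and one carried by some of them cannot be told apart.

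Pax proteins are transcription factors that bind DNA through a paired domain and set the identity of organ primordia. They fall into subfamilies by structure: Pax1 and Pax9 act in the vertebral column, pharyngeal pouches and teeth, Pax2, Pax5 and Pax8 in kidney, midbrain and thyroid, Pax3 and Pax7 in the neural tube and muscle progenitors, and Pax4 and Pax6 in the eye, brain and endocrine pancreas. Within blood, Pax5 is the commitment factor of B cells, a lineage that erythro-myeloid progenitors are not known for. Polycomb-marked developmental genes in mammals typically have CpG-rich starts.

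The 250 bases before a RefSeq start are printed for 5 of the genes, because they span the range from a start wholly inside peaks of both libraries (Pax2, Pax6) to one inside the 15000-EMP peak alone (Pax1). The sequences are from the RefSeq promoter table on GRCm38, which is mm10, and run 5′ to 3′ on the strand of the gene. Capitals mark the dinucleotide CG, which reads the same on both strands. The Pax2 stretch lies at chr19:44755502-44755751 (plus strand) and the Pax6 stretch at chr2:105668646-105668895 (plus). The Pax5 stretch lies at chr4:44710695-44710944 (minus), the Pax8 stretch at chr2:24475600-24475849 (minus) and the Pax1 stretch at chr2:147364744-147364993 (plus).
Pax2: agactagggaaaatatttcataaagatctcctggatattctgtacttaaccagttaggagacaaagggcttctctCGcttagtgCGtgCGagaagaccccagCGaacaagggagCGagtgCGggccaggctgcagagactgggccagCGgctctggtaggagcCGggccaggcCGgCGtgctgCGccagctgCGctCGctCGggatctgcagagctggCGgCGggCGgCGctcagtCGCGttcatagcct
Pax6: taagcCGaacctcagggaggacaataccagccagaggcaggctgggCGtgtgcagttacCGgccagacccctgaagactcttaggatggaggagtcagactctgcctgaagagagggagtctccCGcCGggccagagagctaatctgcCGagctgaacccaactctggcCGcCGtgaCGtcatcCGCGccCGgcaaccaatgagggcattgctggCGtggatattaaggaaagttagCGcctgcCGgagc
Pax5: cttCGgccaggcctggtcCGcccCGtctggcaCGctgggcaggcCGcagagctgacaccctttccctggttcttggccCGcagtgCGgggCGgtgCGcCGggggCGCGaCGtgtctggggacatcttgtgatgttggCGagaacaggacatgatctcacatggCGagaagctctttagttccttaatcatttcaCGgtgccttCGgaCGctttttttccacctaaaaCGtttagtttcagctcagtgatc
Pax8: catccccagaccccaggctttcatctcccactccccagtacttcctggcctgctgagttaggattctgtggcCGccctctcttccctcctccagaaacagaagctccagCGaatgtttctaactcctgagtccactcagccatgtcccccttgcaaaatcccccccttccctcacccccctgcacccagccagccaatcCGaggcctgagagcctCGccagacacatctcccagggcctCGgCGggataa
Pax1: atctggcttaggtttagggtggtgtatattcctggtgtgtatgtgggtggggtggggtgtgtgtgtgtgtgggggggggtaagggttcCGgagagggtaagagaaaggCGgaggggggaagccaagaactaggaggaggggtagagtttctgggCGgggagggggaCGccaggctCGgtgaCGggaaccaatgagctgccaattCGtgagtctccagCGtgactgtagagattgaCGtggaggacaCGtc

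These stretches held 20 CG dinucleotides at Pax2, 19 at Pax5, 15 at Pax6, 10 at Pax1 and 6 at Pax8. All 250 bases were covered by 15000-EMP peaks at Pax1, Pax2, Pax6 and Pax8, and 230 at Pax5. With 500 EMPs the covered bases were 250 at Pax2 and at Pax6, 99 at Pax8, 16 at Pax5 and 0 at Pax1. The Pax8 stretch, which had the fewest CG dinucleotides of those printed, was thus covered in full with 15000 EMPs, as was the dense one at Pax2. With 500 EMPs the Pax8 stretch was covered only in part. With the first 50 transcribed bases added, 10 windows of 7 members had a median of 16.5 CG dinucleotides, against 7 over 32851 promoter windows. The latter belong to 27025 genes, a different set from the 21910 protein-coding genes used elsewhere. Pax3 and Pax4 are not among the 7 members. Pax2 entered with 3 windows and Pax6 with 2, so the value of 16.5 is a median of windows and not of the family. As many CG dinucleotides as in the Pax2 window printed above were held by 21.5% of all windows, and as many as in the Pax8 window by 52.1%.

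The first question was how often the mark met a Pax gene at all, beside protein-coding genes in general. A peak in the gene or within 20 kb was present at 8 of 9 members with 500 EMPs (18.5% of all protein-coding genes) and at 9 of 9 with 15000 EMPs (30.07% of all). A peak over a coding start was present at 7 of 9 members with 500 EMPs, where 2.031% of all protein-coding genes had one. With 15000 EMPs it was present at 9 of 9, against 10.46% of all. By the distance given in the deposited table, with the study's limit of 3 kb, 8 of 9 members had a peak with 500 EMPs (9.667% of all genes) and 9 of 9 with 15000 EMPs (16.59%). Pax4 was missing from the 500-EMP counts by all criteria, and Pax1 by the start criterion alone.

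The windows of the 9 genes held 166 peaks with 500 EMPs and 82 with 15000 EMPs. These peaks covered 122 kb with 500 EMPs and 257 kb with 15000 EMPs, 12.7% and 26.7% of the summed windows. As deposited, the library with more cells thus gave fewer but longer pieces in these windows. Its whole list held more peaks, 15282 against 10223. The difference in number depended on how peaks were joined: with peaks within 3 kb of each other joined, there were 24 stretches with 500 EMPs and 25 with 15000 EMPs. Of the 82 peaks with 15000 EMPs 18 were wider than 5 kb, while none of the 166 with 500 EMPs was. In the whole lists, 875 of 15282 peaks and 30 of 10223 peaks exceeded 5 kb. The median width of a Pax peak was 793 bp with 15000 EMPs and 517 bp with 500 EMPs, beside 770 bp and 363 bp over the whole lists.

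**Figure D1:**
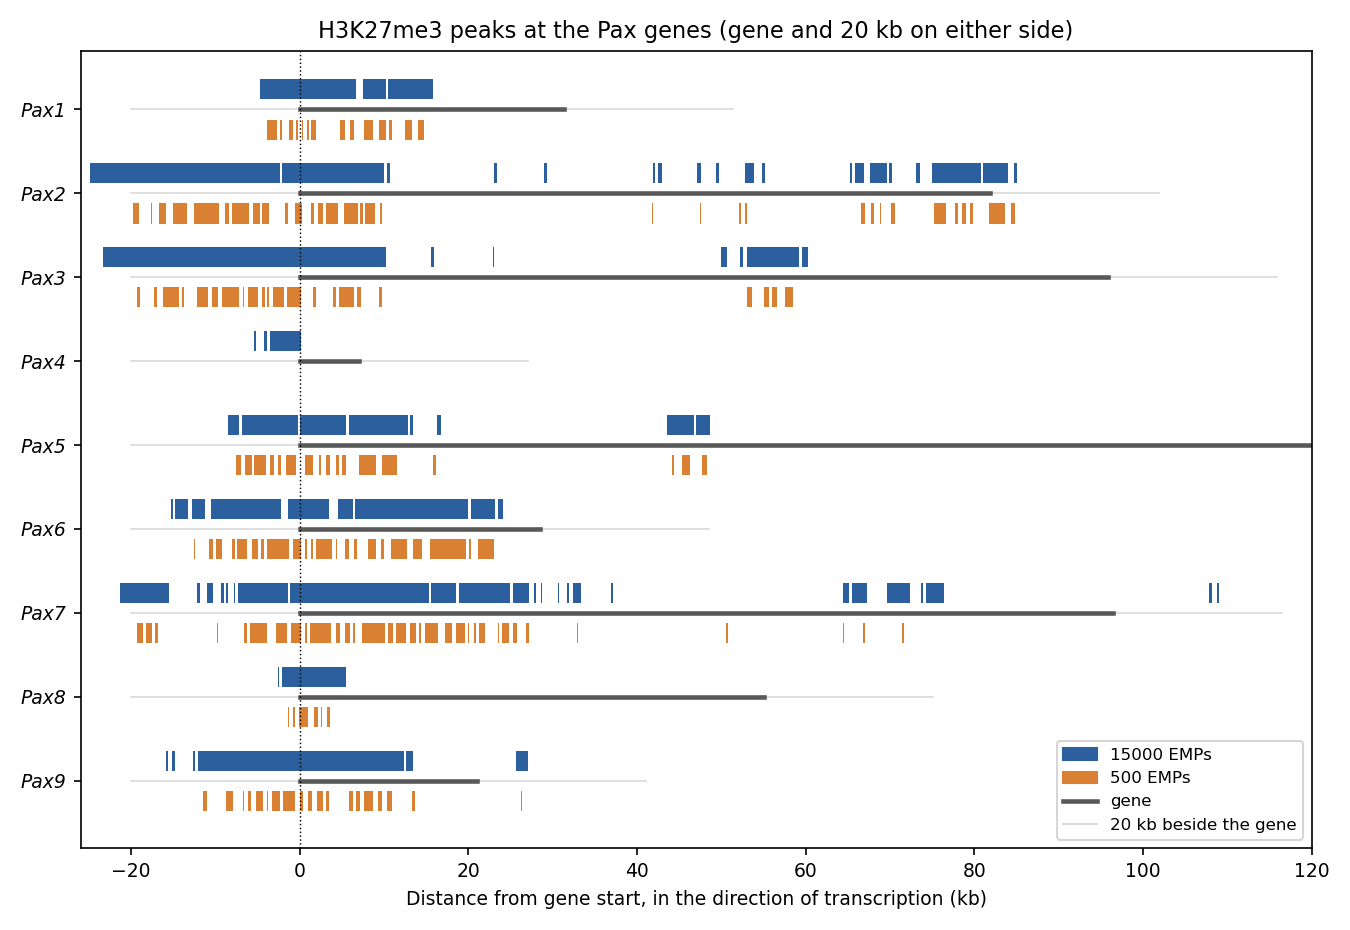
H3K27me3 peaks of both libraries in the Pax genes and 20 kb on either side, drawn to scale against the distance from the gene start in kb, with transcription running to the right. Blue bars are 15000-EMP peaks, orange bars 500-EMP peaks, and peaks that reach past the window are drawn whole; the axis ends inside the Pax5 gene, where each library had 1 further peak that starts 164046 bp (15000 EMPs) or 164067 bp (500 EMPs) from the start.

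Pax3, which specifies neural crest and limb muscle progenitors, and Pax7, its paralog in the dorsal neural tube and muscle satellite cells, lie on chr1:78101267-78197134 and chr4:139737062-139833528, both on the minus strand. At Pax3, 7 peaks with 15000 EMPs covered 38731 bp and 22 with 500 EMPs covered 17668 bp. Pax7 had the most covered bases of the family with 15000 EMPs, 49714 bp in 24 peaks, and 23384 bp in 33 peaks with 500 EMPs. Among all protein-coding genes, the covered length with 15000 EMPs ranked 14th for Pax7 and 47th for Pax3. Long genes have long windows, and by the share of the window covered the ranks were lower. Pax7 came 214th with 36.4% and Pax3 351st with 28.5%. The pair differed in how the mark was laid out. At Pax3 a single peak of 33527 bp (chr1:78186959-78220485) spanned the start and ran 23351 bp upstream of it, past the window. At Pax7 the widest peak was 16434 bp (chr4:139818205-139834638), and further peaks followed it through the gene. Both genes also had a separate stretch of peaks deep in the gene body. At Pax3 it included a 15000-EMP peak of 6104 bp that began 53063 bp after the start.

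Pax9 and Pax1 share roles in the pharyngeal pouches and the sclerotome, the source of vertebrae. Pax9 (chr12:56691767-56712822, plus strand) had 27620 bp covered in 6 peaks with 15000 EMPs and 10826 bp in 19 peaks with 500 EMPs. Its widest peak, 24427 bp at chr12:56679635-56704061, ranked 7th in the 15000-EMP list and extended on both sides of the start, 12132 bp upstream and 12294 bp downstream. At Pax1 (chr2:147361925-147393295, plus strand), 3 peaks covered 19384 bp with 15000 EMPs and 14 peaks covered 7601 bp with 500 EMPs. The widest Pax1 peak with 15000 EMPs measured 11439 bp (chr2:147357171-147368609) and included both coding starts. With 500 EMPs neither start of Pax1 lay in a peak, the nearest peaks being 234 and 1189 bp away, although 9 pieces of the 500-EMP list fell inside that wide peak. All 1602 coding bases of Pax1 and 75.4% of those of Pax9 were covered with 15000 EMPs, the highest shares in the family.

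Pax2, needed for kidney and optic nerve formation, came next to Pax7 in covered length with 15000 EMPs. Its window on chromosome 19 (gene at chr19:44756045-44837871, plus strand) held 46850 bp in 19 peaks with 15000 EMPs and 24714 bp in 32 peaks with 500 EMPs. The widest peak, 22463 bp at chr19:44731191-44753653, did not touch the gene: it ended 2392 bp before the start, and the next peak, of 12092 bp, covered the start. A further group of peaks lay at the 3′ end of the gene, among them one of 5772 bp that began 74988 bp after the start. Peaks also continued upstream, beyond 20 kb, as the Pax2 rows of the deposited tables showed. They numbered 18 with 15000 EMPs (33715 bp, up to 96035 bp from the gene) and 26 with 500 EMPs (19318 bp, up to 88719 bp). These distant peaks are outside the window and are in none of the sums above.

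Pax8 and Pax5 had the lowest covered shares of their windows after Pax4 with 500 EMPs. Pax8, a factor of thyroid and kidney (chr2:24420560-24475599, minus strand), had 7726 bp covered in 2 peaks with 15000 EMPs and 2532 bp in 6 peaks with 500 EMPs. A single 15000-EMP peak of 7545 bp (chr2:24470158-24477702) contained all 5 coding starts and all 6 of the 500-EMP peaks. Each of the 5 starts was also in a 500-EMP peak. The deposited table also named 5 peaks for Pax8 that lay farther out with 15000 EMPs, 1698 bp in all and up to 132065 bp from the gene. In both libraries only 25 of 1405 coding bases of Pax8 were covered. Pax5 (chr4:44524757-44710487, minus strand) had 27611 bp in 9 peaks with 15000 EMPs and 13734 bp in 18 peaks with 500 EMPs. In the long Pax5 window of 226 kb these made 12.2% and 6.08%. The annotated start of the gene record at Pax5 fell in a gap between peaks, 10 bp from the nearest with 15000 EMPs and 442 bp with 500 EMPs. Of its 6 coding starts, 4 lay in a 15000-EMP peak and 1 in a 500-EMP peak. The coding start of Pax5 farthest from a peak in both libraries, 16129 and 16478 bp away, was that of the short transcript Pax5-220 inside the gene.

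Pax6, a regulator of eye, forebrain and islet development, had the highest share of its window covered, 51.2% with 15000 EMPs and 31.8% with 500 EMPs. Its gene (chr2:105668900-105697364, plus strand) was covered over 77.8% of its length with 15000 EMPs and 50.1% with 500 EMPs. The widest peak was 13392 bp with 15000 EMPs (chr2:105675500-105688891) and 4270 bp with 500 EMPs, the latter the widest Pax peak of that list. Of the 10 coding starts of Pax6, 9 lay in a 15000-EMP peak and 6 in a 500-EMP peak. The exception with 15000 EMPs, at position 105675433, was 67 bp from a peak and was inside a 500-EMP peak. Coverage at Pax6 ended inside the gene in both libraries, and no base of the 20 kb downstream was covered.

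Pax4, which drives beta-cell formation in the pancreas, stood at the low end of the family. Its gene (chr6:28442334-28449353, minus strand) had no 500-EMP peak in the window, and the nearest one lay 51802 bp from the start. With 15000 EMPs, 3 peaks covered 4318 bp, and the widest, 3685 bp at chr6:28449238-28452922, reached from upstream into the first 116 bp of the gene. Of 3 coding starts 2 were in that peak, and none of the 1047 coding bases was covered. The widest Pax4 peak ranked 1533rd of the 15000-EMP list, whereas the widest peaks of the other members ranked between 1st and 407th. A missing peak in the 500-EMP list is a peak that did not pass the caller, and not a measured absence of the mark.

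**Figure D2:**
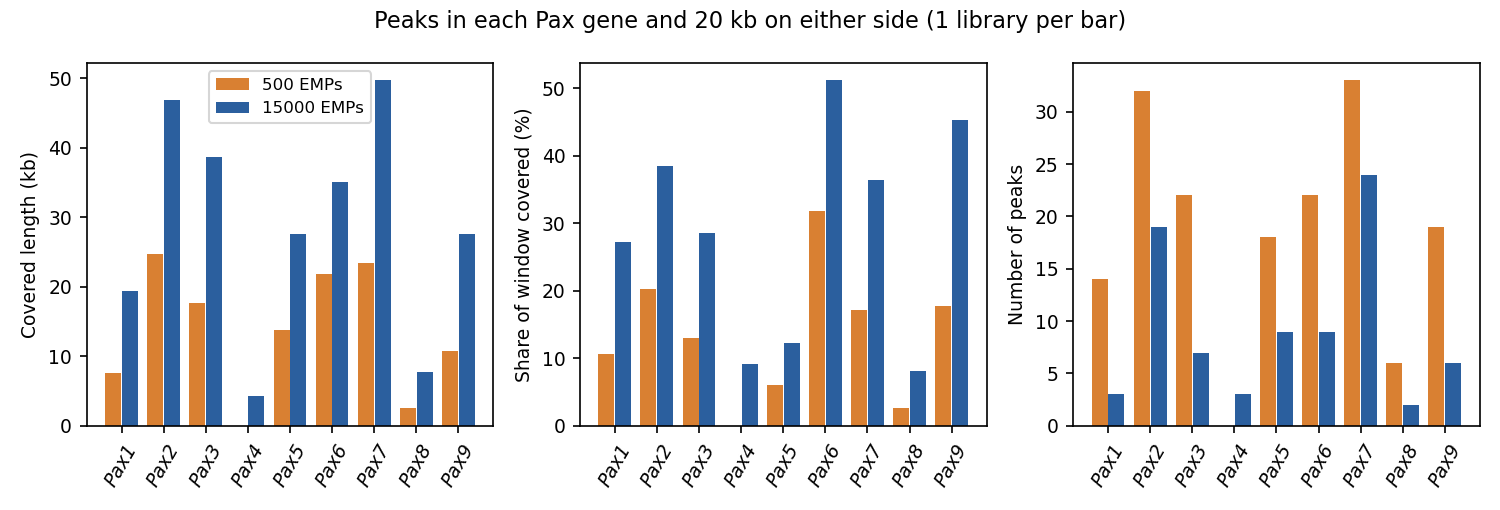
Covered length in kb, share of the window covered in percent, and number of peaks for each Pax gene with 20 kb on either side, 1 library per bar. Covered length was higher with 15000 EMPs at all 9 genes, the number of peaks was higher with 500 EMPs at 8 of 9, and Pax4 has no 500-EMP bar because no peak was called.

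Over all members, 17 of 35 coding starts lay in a 500-EMP peak and 31 of 35 in a 15000-EMP peak, against 1.145% and 7.59% of 54398 coding starts of all protein-coding genes. Within 3 kb of the gene start, a stretch of 6001 bp, the 15000-EMP peaks covered all bases at Pax1, Pax3 and Pax9. Pax5 followed with 5764 bp, Pax2 with 5745, Pax7 with 5719, Pax8 with 5285, Pax6 with 5175 and Pax4 with 3116. The order was different with 500 EMPs, where Pax7 had 4552 bp, Pax6 4299, Pax9 3626, Pax3 3135, Pax5 2784, Pax2 2234, Pax8 2081, Pax1 1974 and Pax4 0. Without replicates no spread is known, so neighbours in either order cannot be said to differ. The median over the members was 2784 bp with 500 EMPs and 5745 bp with 15000 EMPs, and the median over all protein-coding genes was 0 in both.

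The mark was not limited to the start. Averaged over the members, 15000-EMP peaks covered 87.5% of bases in the 5 kb before the gene start and 86.8% in the 5 kb after it, against 5.17% and 7.32% over all protein-coding genes. From 10 to 20 kb the shares were 35.8% upstream and 36.3% downstream, against 1.67% and 1.77%. With 500 EMPs the members had 48.4% and 38.0% in the 5 kb on each side, and 15.1% and 20.3% from 10 to 20 kb. In the general set the averages were 1.38% and 1.76% within 5 kb, and 0.443% and 0.506% from 10 to 20 kb. Positions at Pax genes are few, so a step in the curve of the members can be 1 gene.

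**Figure D3:**
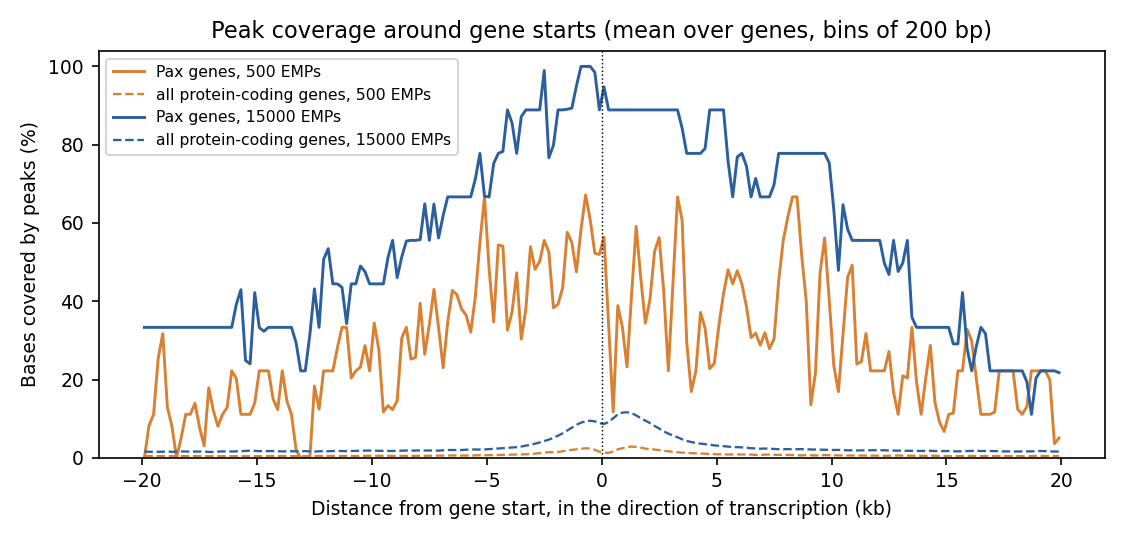
Mean share of bases covered by peaks in percent, in bins of 200 bp, against the distance from the gene start in kb, for the 9 Pax genes (solid) and 21910 protein-coding genes (dashed). With 15000 EMPs the Pax curve reached 100% just before the start and was still above the dashed curve 20 kb away. The Pax curve with 500 EMPs was uneven and lay lower in most bins. It was higher in 4 bins between 15800 and 19000 bp after the start, and equal in some bins between 17200 and 19400 bp.

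The 500-EMP peaks were then compared with the 15000-EMP peaks, to see whether both lists marked the same stretches of Pax genes. Of 166 peaks with 500 EMPs, 161 shared 1 bp or more with a 15000-EMP peak, 97.0% (95% Wilson interval 93.1% to 98.7%). Over the whole 500-EMP list the share was 91.2% (90.7% to 91.8%). These intervals cover counting error alone and treat neighbouring peaks as independent, which pieces of a single domain are not. By length, 95.9% of the bases covered with 500 EMPs were also covered with 15000 EMPs, and 45.6% the other way around. The ratio of the covered lengths ran from 1.61 at Pax6 to 3.05 at Pax8. The 5 peaks without a partner were narrow, 137 to 329 bp, and lay 1 at Pax2, 1 at Pax5, 1 at Pax6 and 2 at Pax7. All but 1 of them were within 497 bp of a 15000-EMP peak, and the remaining one, a peak of 226 bp that began 50546 bp after the Pax7 start, was 13419 bp away.

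Most wide 15000-EMP peaks corresponded to several pieces in the 500-EMP list. The widest peak held 19 pieces at Pax3, 17 at Pax9, 12 at Pax7, 11 at Pax2, 9 at Pax1, 6 at Pax6 and at Pax8, 2 at Pax5 and 0 at Pax4. The pieces filled 67.2% of the widest peak at Pax7, 64.8% at Pax6 and 33.4% at Pax1. Gaps between them were short: their median was 462 bp at Pax7, 550.5 bp at Pax9 and 842 bp at Pax6, and the longest gap, at Pax1, was 2879 bp. When neighbours up to 3 kb apart were joined, the longest stretches of both libraries came to like lengths at Pax3 (33093 bp with 500 EMPs, 33527 bp with 15000), Pax6 (35585 and 39289 bp), Pax1 (18625 and 20514 bp) and Pax9 (25110 and 29315 bp). The 500-EMP stretch was shorter by more at Pax5 (19182 and 25264 bp), Pax7 (33807 and 45517 bp), Pax2 (32827 and 49060 bp) and Pax8 (5018 and 8040 bp). At Pax1, Pax2, Pax5, Pax6, Pax7 and Pax9 the joined 500-EMP stretch exceeded the widest 15000-EMP peak as deposited.

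Peak width was also compared between the Pax genes and the genes nearest to Pax3 in this measure. The widest 15000-EMP peak over a protein-coding gene was that of Pax3, followed by Hoxb13 with 29727 bp, Dlx5 and Dlx6 with a shared peak of 28011 bp, and Hoxa3 and Gm28308 with a shared peak of 27239 bp. Hoxb13 and Hoxa3 are homeobox genes of the body axis, and Dlx5 and Dlx6 are homeobox genes of limb and face. By the same measure Pax9 ranked 15th, Pax7 51st, Pax6 86th, Pax2 114th, Pax1 131st, Pax8 302nd, Pax5 348th and Pax4 1174th of 21910 genes. This likeness is one of width in a single library.

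Most peaks of the windows were named for the member in the deposited tables, 115 of 166 with 500 EMPs and 49 of 82 with 15000 EMPs. The remainder went to other annotated genes, largely non-coding ones. At Pax6 the tables gave the gene only 3 of 22 peaks with 500 EMPs and 2 of 9 with 15000 EMPs, since most peaks were assigned to the antisense gene Pax6os1 or the long non-coding RNA Paupar. At Pax1, 9 of 14 peaks with 500 EMPs were assigned to the antisense gene AI646519, and at Pax5, 8 of 18 were assigned to 5730488B01Rik. At Pax6 the peaks assigned elsewhere made up 17904 of 21790 covered bp with 500 EMPs and 21870 of 35042 with 15000 EMPs. Covered lengths in the windows therefore rest on peak positions, while the distant peaks and the counts within 3 kb rest on the assigned symbol. Besides those of Pax2 and Pax8, 1 distant peak was assigned to Pax3 (1963 bp) and 1 to Pax7 (212 bp), both with 500 EMPs.

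Of the neighbouring protein-coding genes that reach into the windows, 1 had covered bases there. Slc25a21, a mitochondrial carrier gene that overlaps the end of Pax9, had 137 bp covered with 500 EMPs and 1468 bp with 15000 EMPs in the window, and the start of its gene record, which lies outside the window, was in a peak in both libraries. The genes Elp4 beside Pax6, Psd4 beside Pax8, and Gcc1, Arf5 and Fscn3 beside Pax4 had 0 covered bases in the windows with either library. These genes were named after their values were seen.

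Further lists, written from general knowledge, placed the Pax genes beside their partners and targets. The partner list held Eya and Dach genes and homeobox genes such as Six3, whose products are factors and cofactors that act with Pax proteins in eye, ear and kidney. Of 12 such genes, 3 had a peak over a coding start with 500 EMPs and 6 with 15000 EMPs, beside 2.031% and 10.46% of all protein-coding genes. In the gene or within 20 kb, 7 and 10 had one, beside 18.5% and 30.07% of all. Six3, a forebrain and eye factor, had the most covered bases around its start, 5273 bp with 500 EMPs and all 6001 bp with 15000 EMPs, while Eya3 and Dach2 had no peak in either library. Eya1, Six4 and Dach1 had no peak with 500 EMPs but had one with 15000 EMPs. The median covered length within 3 kb of the start was 546.5 bp with 500 EMPs and 2902.5 bp with 15000 EMPs.

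Of 18 known Pax target genes, 5 had a peak over a start with 500 EMPs and 10 with 15000 EMPs, beside 2.031% and 10.46% of all protein-coding genes. In the gene or within 20 kb, 13 and 14 had a peak, beside 18.5% and 30.07% of all. The median covered length within 3 kb of the start was 1218.5 bp and 4882 bp. Msx1, a homeobox gene that acts with Pax9 in tooth formation, had the most with 500 EMPs, 4538 bp. With 15000 EMPs all 6001 bp were covered at Lhx1, Gdnf and Wt1, which act in the kidney with Pax2 and Pax8. The B-cell targets of Pax5 differed among themselves. Cd79a and Blnk, components of B-cell receptor signaling, had no peak in either library, while Ebf1, a B-cell transcription factor, had 438 bp covered around its start with 500 EMPs and 3727 bp with 15000 EMPs. Myf5, a muscle target of Pax3 and Pax7, had no peak in either library, whereas Myod1 had one over its start in both. Maf had none with 500 EMPs and a peak of 314 bp with 15000 EMPs.

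**Figure D4:**
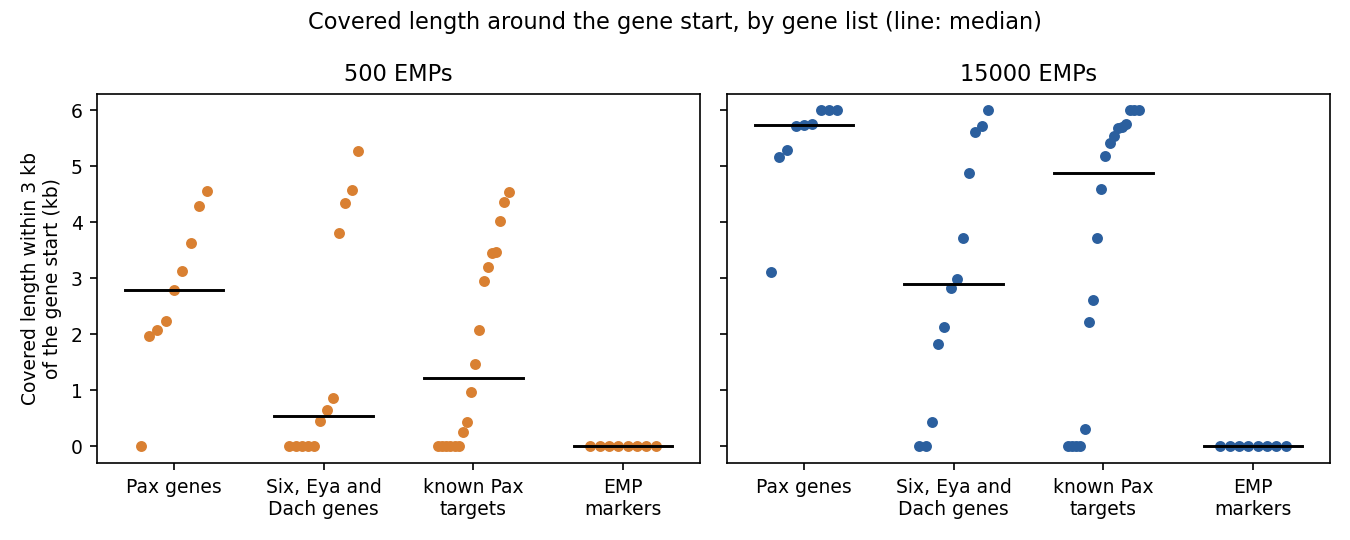
Covered length in kb within 3 kb of the gene start, 1 point per gene and a line at the median, for the Pax genes, 12 partner genes (the homeobox, Eya and Dach genes), 18 known Pax targets and 8 EMP marker genes, with 500 EMPs (left) and 15000 EMPs (right). The Pax median was 2784 bp and 5745 bp, and all EMP markers were at 0 in both libraries.

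Marker genes gave no firm check of the cell label, as a peak of a repressive mark is not a measure of expression and few protein-coding genes had a peak over a start (2.031% with 500 EMPs, 10.46% with 15000 EMPs). None of the 8 EMP genes (Kit, Itga2b, Fcgr3, Fcgr2b, Runx1, Gfi1b, Spi1 and Ptprc) had a peak over a start in either library, and Fcgr3 alone had peaks within 20 kb. Of 5 endothelial genes only Sox17 had a peak over its start, again in both libraries. None of 3 visceral endoderm genes and none of 2 erythroid genes had one, so these lists do not tell EMPs from those cell types.

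The Pax peaks were finally set against the base composition under them. CG dinucleotides numbered 22.8 per kb in 500-EMP peaks and 22.7 per kb in 15000-EMP peaks of the Pax windows, against 10.7 per kb outside peaks. The values over the whole lists were 21.3 and 23.5 per kb. Density was higher inside 15000-EMP peaks than outside at 8 of 9 genes, by 1.82 times at Pax7 to 3.06 times at Pax1. At Pax4 the 15000-EMP peaks had 13.9 per kb and the rest of the window 14.0 per kb. Pax4 also had the fewest CG dinucleotides within 1 kb of its start, 11, against 127 at Pax2, 109 at Pax7, 92 at Pax6, 87 at Pax3, 86 at Pax9, 61 at Pax1, 56 at Pax5 and 40 at Pax8. Over 21644 protein-coding genes the median was 62, so 5 members were above it and 4 below. Pax8, at 40, had all of its starts in peaks of both libraries, and the counts of the family are given here as a description without a test.

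**Figure D5:**
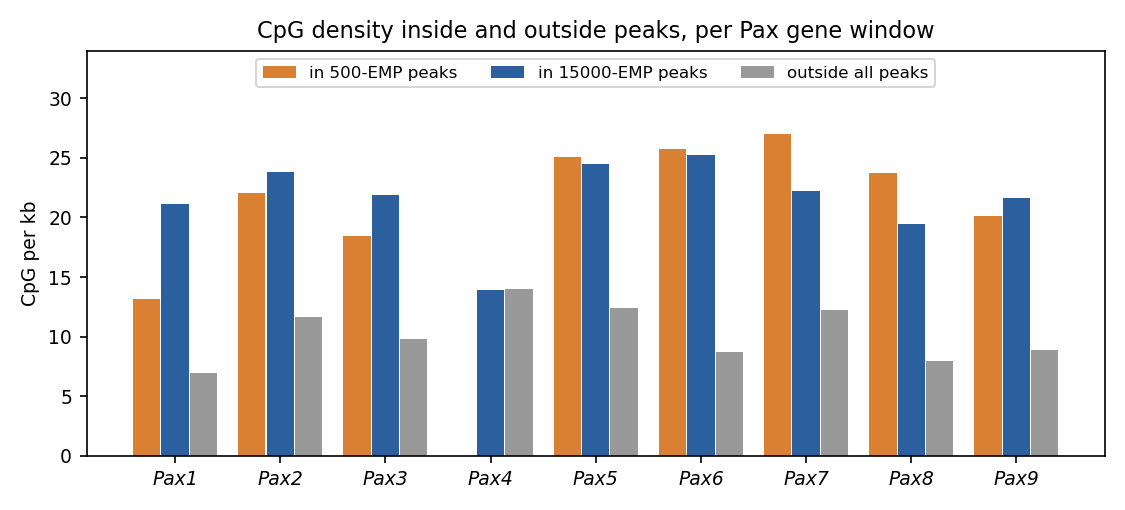
CG dinucleotides per kb in 500-EMP peaks (orange), in 15000-EMP peaks (blue) and outside all peaks (grey) for the window of each Pax gene. Blue bars exceed grey ones at 8 of 9 genes, Pax4 has 13.9 and 14.0 per kb, and no 500-EMP peak was called there.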

How the data were processed

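The authors aligned paired-end CUT&RUN reads to mm10 (GRCm38) with Bowtie2 2.2.1 and called broad peaks with MACS2 2.1.2 for each H3K27me3 library against the IgG library of the same cell number. Versions are those of the submitters' processing notes, which also name SAMtools 1.9 and deepTools 3.5.1. The p-value threshold was 0.01 for 500 EMPs and 0.05 for 15000 EMPs. The study's list of commands names the other library under each threshold, and the peak lists were taken as labelled. Broad calling joins nearby enriched stretches, so the number of pieces depends on signal and joining alike. Sources differ on the library kit (Nextera XT in the labels, NEBNext in the study's methods) and on the instrument models.

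The deposited files gave the position of each peak, and tables that paired peaks with genes and a distance in bp by ChIPpeakAnno. They held no score, p-value or read count per peak, so depth is unknown from the files. By the study's own account, the 500-EMP library was sequenced less deeply and aligned less well. The study gave it the stricter threshold to offset a high background. Starts and ends in the deposited tables lay 1 bp above those of the 0-based peak lists, and positions here are 1-based from the lists. Of the 4 libraries, the 2 IgG libraries were not analysed here.

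Gene positions and coding starts were from GENCODE vM21 on GRCm38, and 0 peaks ran past a chromosome end on 20 chromosomes. Covered length is the number of bases under peaks in the gene and 20 kb on either side. Python 3.11.15, statsmodels 0.14.6 (Wilson intervals) and matplotlib 3.10.9 were used. The calculation was tested on simulated peaks and recovered the known lengths in 20 of 20 draws. All 9 members were named, with the extremes and the genes without a peak of the other lists, genes in a member's window that share its peaks, and the 5 genes next to the widest member. Some list genes that this rule would name are not reported here. The members and lists were chosen with earlier results of these data known. Alternatives were other windows, a minimum width of 500 bp, joining within 1 or 3 kb, and stricter overlap.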

Additional observations from a re-analysis of the deposited data

How the results depend on the processing

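Of 63 alternative settings for 15 counts and sums over the Pax genes and lists, 52 stayed within 1.5 times the value given or within its interval, and 1 reversed a direction. This was the excess of peaks with 500 EMPs over 15000 EMPs in the Pax windows, 84 as deposited, which was 37 for peaks of at least 500 bp, 17 with peaks within 1 kb joined, and -1 with peaks within 3 kb joined. These settings for the number of peaks were chosen after seeing the data. The summed covered length of the Pax genes was 69751 bp (500 EMPs) and 154272 bp (15000 EMPs) in the gene body alone, and 228410 bp with 500 EMPs when peaks within 3 kb were joined. Within 3 kb of a start instead of over it, 7 of the 12 Pax partner genes had a peak with 500 EMPs and 10 with 15000 EMPs, and 12 Pax targets had one with 500 EMPs. The share of 500-EMP Pax peaks that overlap a 15000-EMP peak was 1.20% when 50% of both peaks had to be shared, and 100% for peaks of at least 500 bp. The share was 94.0% when only 50% of the 500-EMP peak had to be shared. A short piece cannot fill 50% of a much wider peak, so the stricter setting leaves such pieces out by construction. Other reasons for the low share were not tested. For single genes, 27 of 126 alternatives moved a covered length by more than 1.5 times. Depth, threshold and cell number differ together between the libraries, and their part in any difference was not tested. No paired analysis was possible because each group has 1 library. No replicate could be left out for the same reason.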
